A study of Mus musculus with 39 samples.

Results

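10 genes that encode RNA-binding regulators of alternative splicing in muscle were followed through the differentiation of C2C12 cells with and without filamin C. The genes were Rbm24, Rbm38, Rbm20, Mbnl1, Mbnl2, Mbnl3, Celf1, Celf2, Rbfox2 and Ptbp1, picked by symbol as 10 of the 29980 genes in the deposited table. All 10 of the 10 were among the 13780 genes with enough reads to be tested. C2C12 is a mouse myoblast line that divides in serum-rich medium and fuses into myotubes when serum is lowered. FlncKO cells carry a knockout of Flnc, the gene of the muscle actin crosslinker filamin C, made with CRISPR/Cas9 and a guide to its first exon, and WT cells are unedited C2C12. Both lines were sampled while growing in fetal bovine serum (day 0) and after 1, 2, 4 and 6 days in low-serum medium with horse serum. The labels do not say whether FlncKO is 1 clone, so any other difference between the lines is part of every comparison of FlncKO with WT.

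Muscle differentiation exchanges many exons of sarcomere, channel and signalling transcripts, and it does so through a small set of RNA-binding proteins whose amounts shift as myoblasts become myotubes. MBNL and CELF proteins bind many of the same transcripts and often act on an exon in opposite directions, RBM24, RBM20 and RBFOX proteins shape sarcomere exons, and PTBP1 holds muscle and neuronal exons out of the messages of dividing cells. The imbalance of MBNL and CELF activity is best known from myotonic dystrophy, in which expanded repeat RNA traps MBNL proteins. Counts per gene sum all splice forms, so the values here are the RNA levels of the regulators and carry no measure of exon use.

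Genotype and day gave 10 groups of 4 libraries, with FlncKO day 2 at 3, so 39 libraries were used, with 6838281 to 28902526 counts each. Flnc RNA, which checks the genotype labels, stood at 98.5 to 148 CPM (counts per gene scaled to the library total) in FlncKO libraries and 1360 to 1920 CPM in WT libraries at day 6, and its log2 difference was -4.52 to -3.71 over the 5 days. In each line all 7 myotube markers were called higher on day 6 than on day 0, and their summed RNA at day 6 ran from 3320 to 6510 CPM in FlncKO libraries and from 13600 to 16700 CPM in WT libraries. No marker of that list was at 0 in any group. Summed RNA of 6 fibroblast markers was 615 to 1020 CPM in FlncKO (Thy1 at 0) and 261 to 798 CPM in WT (Thy1 and Lum at 0) at day 6. These markers did not all go 1 way: of the 4 tested, 3 were called higher in FlncKO on that day and 1 lower. Of 4 cardiomyocyte markers, summed RNA was 61.4 to 74.0 CPM in FlncKO (Myl7 at 0) and 21.4 to 34.8 CPM in WT (Nppa and Myl7 at 0). Only 2 of these 4 were tested, and 1 was called higher in FlncKO. Replicate 3 of FlncKO day 1 was the library least like its group (mean Pearson r of 0.929 with the others), and 3 further libraries, replicate 1 of FlncKO day 1, replicate 3 of FlncKO day 4 and replicate 4 of WT day 0, stood at 0.954 to 0.955. Leaving out replicate 3 of FlncKO day 1 and replicate 4 of WT day 0, a pair taken from earlier results of these data, ended no call of any member and added 9. The calls it added over all genes are not given here. The labels do not say that replicates are separate cultures, so a p-value measures only the spread between these samples. In bulk RNA, fewer cells of a type and less RNA per cell cannot be told apart.

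A gene was called changed when edgeR's quasi-likelihood test, adjusted by Benjamini-Hochberg over all genes tested, gave an adjusted p under 0.05. The fit behind these calls held 1 mean per group and no replicate term. Each standard error (SE) comes from the spread of log2 CPM within groups, not from that fit. With the 5 days averaged, 3 members were lower in FlncKO than in WT, namely Rbm24, Rbm38 and Celf1, and 1 was higher, Mbnl1. Of all tested genes, 26.3% were lower and 26% higher in that comparison, and the median log2 difference of the 10 members was 0.005, equal to that of all tested genes. By day, the members called lower numbered 2 at day 0 (Rbm24 and Celf2, where 9.09% of all genes were lower), 2 at day 1 (Rbm24 and Rbm38, 9.93%), 2 at day 2 (Rbm24 and Rbm38, 10.3%), 3 at day 4 (Rbm24, Rbm38 and Celf1, 14.2%) and 2 at day 6 (Rbm24 and Rbm38, 14.4%). Mbnl1 was the 1 member called higher at day 1 (8.1% of all genes) and at day 2 (7.64%). Libraries of FlncKO and WT did not overlap for 1 member at day 0, 2 at day 1, 3 at day 2, 2 at day 4 and 2 at day 6, while 17.3%, 18.5%, 27.3%, 27.2% and 33.9% of all tested genes were so separated on those days. At day 0 the fit with replicate number as a block called 4 members lower (Rbm24, Rbm38, Celf1 and Celf2) and Mbnl1 higher. The shares of all genes above are those of the fit without the block, and those with it are not given here. Rbm24 and Rbm38 thus made up most calls from day 1 on, and the plot of differences by gene shows them as the members furthest below 0.

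**Figure D1:**
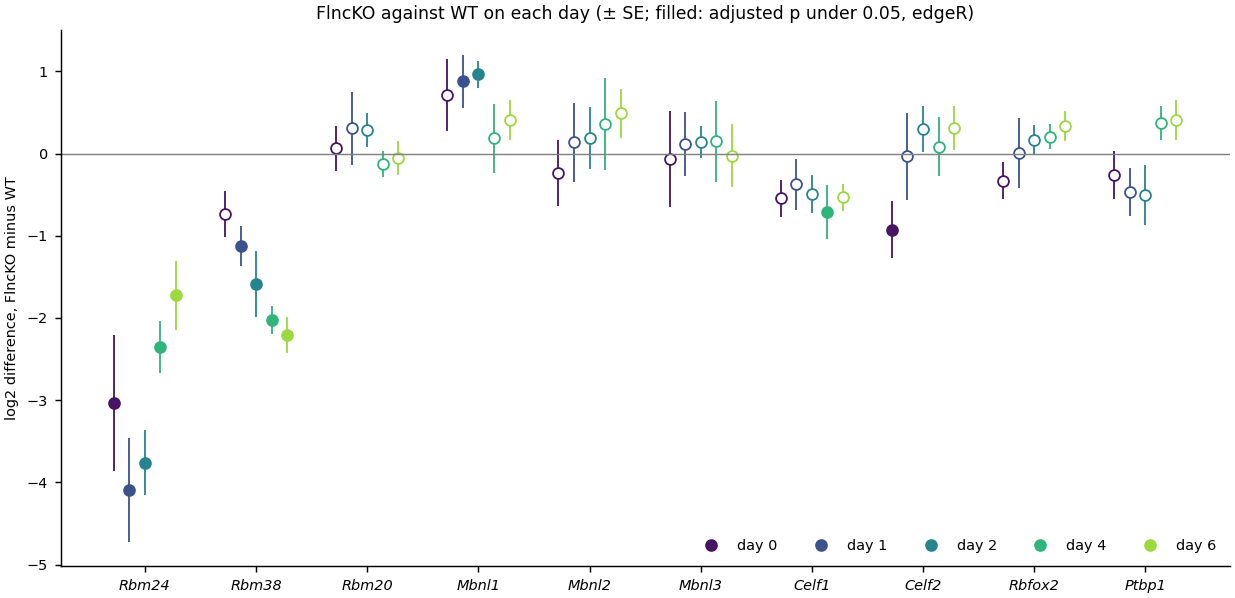
Log2 difference between FlncKO and WT (vertical axis, FlncKO minus WT from the edgeR fit, ± SE) for each of the 10 genes (horizontal axis), with 1 point per day from day 0 at the left to day 6 at the right of each cluster. The SE comes from the spread of log2 CPM within groups, not from the fit. Filled points passed an adjusted p of 0.05: Rbm24 is filled on all 5 days at -4.09 to -1.72, and Rbm38 on days 1 to 6 at -2.20 to -1.12. Mbnl1 is filled on days 1 and 2 at 0.88 and 0.96, Celf2 at day 0 at -0.93 and Celf1 at day 4 at -0.71.

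Rbm24 (chr13:46418434-46431095, plus strand; gene positions are those of GENCODE on GRCm38) encodes a muscle-enriched protein that promotes inclusion of sarcomere exons and stabilises some muscle messages. It had the widest range of the 10 genes, with group means of log2 CPM (prior count 2) spread over 9.06 log2 units. At day 0 it had 0.142, 0.2, 0.927 and 0 CPM in FlncKO libraries, against 2.24, 1.12, 1.4 and 5.4 CPM in WT libraries. All 4 FlncKO libraries lay below all 4 WT libraries, but together they held 30 reads, 22 of them in replicate 4, and the 0 of replicate 5 allows up to 0.123 CPM (3 counts, counting error only). At day 1 the levels were 1.38, 0.926, 0.897 and 2.51 CPM in FlncKO, against 28.5, 9.44, 12.7 and 48.8 CPM in WT. At day 2 they were 5.14, 3.0 and 5.65 CPM in FlncKO, against 72.1, 38.7, 43.2 and 87.9 CPM in WT. On both days the highest FlncKO library stayed below the lowest WT library, and FlncKO means were 5.7% and 7.6% of WT means. At day 4 Rbm24 had 36.0, 30.9, 17.6 and 49.8 CPM in FlncKO, against 181, 146, 155 and 168 CPM in WT. At day 6 it had 58.8, 70.1, 20.5 and 54.5 CPM in FlncKO, against 199, 167, 139 and 137 CPM in WT. The groups stayed apart on both days, with FlncKO means at 20.7% and 31.8% of WT means.

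Rbm24 was called lower in FlncKO on every day: by edgeR the log2 difference was -3.03 ± 0.83 (SE) at day 0 (adjusted p = 0.00105), -4.09 ± 0.63 at day 1 (2.68e-06), -3.76 ± 0.40 at day 2 (3.54e-05), -2.35 ± 0.32 at day 4 (0.000572) and -1.72 ± 0.42 at day 6 (0.0083). The day 0 value moved to -4.50 without FlncKO replicate 4 and to -2.34 without WT replicate 5, and the block within the day ended that call (-3.18, adjusted p = 0.0511). Within each line Rbm24 rose as well. In FlncKO it was 2.18, 3.80, 6.68 and 7.28 log2 units above day 0 on days 1, 2, 4 and 6 (adjusted p = 0.0402, 7.96e-05, 6.41e-09 and 9.97e-10), and in WT it was 3.24, 4.53, 6.00 and 5.97 above (0.000897, 7.75e-07, 1.9e-09 and 1.08e-09). The FlncKO rise at day 1 lost its call with no filter (adjusted p = 0.07), with halved counts (0.0591), in the fit of only those groups (0.279), and without FlncKO day 0 replicate 1, 3 or 5 or FlncKO day 1 replicate 1 or 5 (0.0807 to 0.2). The rise in FlncKO minus that in WT did not pass the test on any day (1.31 ± 0.93 at day 6, adjusted p = 0.328; 0.125 for all days jointly). In the order of group means, WT day 4 and WT day 6 stood above all others without overlap. WT day 2, FlncKO day 6, FlncKO day 4 and WT day 1 followed as a run of overlapping neighbours, and FlncKO day 2, WT day 0, FlncKO day 1 and FlncKO day 0 came last, below a second gap. FlncKO libraries of days 4 and 6 thus lay in the range of WT libraries of days 1 and 2. The myotube markers moved with these values: their summed RNA was 735 to 1340 CPM in FlncKO and 3110 to 5890 CPM in WT at day 2, and their part in the Rbm24 and Rbm38 results was not tested.

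Rbm38 (chr2:173020498-173034734, plus strand), the closest paralog of Rbm24, is a p53-induced protein that stabilises the message of Cdkn1a. The promoter windows of this pair are shown because both genes were lower in FlncKO and only Rbm24 was called higher with differentiation in both lines. RefSeq's windows on GRCm38.p6 run from 250 bases before to 50 bases from the transcript start, at chr13:46418050-46418349 (plus strand) for Rbm24 and chr2:173021652-173021951 (plus strand) for Rbm38. Capitals mark CANNTG, the E-box letters read by myogenic factors, which read the same on both strands.
Rbm24: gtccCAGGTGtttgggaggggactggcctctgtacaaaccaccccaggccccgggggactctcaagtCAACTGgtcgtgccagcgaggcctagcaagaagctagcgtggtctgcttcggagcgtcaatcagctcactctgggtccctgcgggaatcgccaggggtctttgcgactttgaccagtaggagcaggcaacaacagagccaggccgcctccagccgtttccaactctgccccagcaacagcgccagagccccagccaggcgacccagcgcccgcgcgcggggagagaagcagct
Rbm38: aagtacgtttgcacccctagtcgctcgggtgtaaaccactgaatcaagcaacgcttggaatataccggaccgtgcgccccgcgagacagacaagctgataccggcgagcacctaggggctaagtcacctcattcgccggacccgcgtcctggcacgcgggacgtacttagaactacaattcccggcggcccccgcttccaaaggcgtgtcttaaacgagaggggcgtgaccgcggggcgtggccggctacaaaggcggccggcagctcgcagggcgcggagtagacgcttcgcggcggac
The Rbm24 window holds 2 matches, of which the first, CAGGTG, reads CACCTG on the other strand, and the Rbm38 window holds none. RefSeq windows were found for 8 of the 10 members. Of 32851 RefSeq promoter windows of the same length, 72.3% hold CANNTG and 20.2% hold CACCTG on either strand, so a match is common and describes only the letters.

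At day 0 Rbm38 had 9.0, 16.3, 9.61 and 12.9 CPM in FlncKO libraries, against 12.4, 19.8, 21.6 and 23.1 CPM in WT libraries. At day 1 it had 10.4, 7.25, 4.93 and 7.44 CPM in FlncKO, against 17.9, 13.3, 15.4 and 19.3 CPM in WT. The groups overlapped at day 0 and were apart from day 1 on. At day 2 the levels were 13.7, 8.63 and 6.03 CPM in FlncKO, against 34.0, 19.4, 34.2 and 22.1 CPM in WT. At day 4 they were 17.6, 15.6, 13.7 and 22.4 CPM in FlncKO, against 69.6, 74.1, 65.6 and 56.5 CPM in WT. At day 6 they were 24.9, 16.5, 12.8 and 17.8 CPM in FlncKO, against 63.9, 89.0, 79.9 and 80.2 CPM in WT. FlncKO means were 45.6%, 34.5%, 26.1% and 23.0% of WT means on days 1, 2, 4 and 6. The edgeR log2 difference was -1.12 ± 0.25 (adjusted p = 0.00295), -1.58 ± 0.40 (0.000218), -2.03 ± 0.17 (6.77e-07) and -2.20 ± 0.22 (1.75e-07) on those days. At day 0 it was -0.74 ± 0.28 (adjusted p = 0.0541), and the replicate block (0.0421), DESeq2 (0.0435) and halved counts (0.0467) put it past the threshold.

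Rbm38 was the 1 member whose course over days differed between the lines by the test. In FlncKO it was 0.51 ± 0.25 log2 units above its day 0 level at day 4 (edgeR adjusted p = 0.132) and 0.55 ± 0.28 at day 6 (0.0921), while in WT it rose by 1.80 ± 0.22 (1.65e-06) and 2.02 ± 0.23 (1.81e-07). The difference of these changes was -1.29 ± 0.33 at day 4 (adjusted p = 0.0272) and -1.47 ± 0.36 at day 6 (0.00901), in comparisons that called 3.13% and 4.04% of all tested genes lower. Over all days jointly the adjusted p was 0.0298, with 7.74% of all genes called. That joint call did not hold in every run with 1 library left out. All these comparisons share the day 0 libraries. The day 4 call was lost without WT day 0 replicate 1 (0.0684), WT day 4 replicate 3 (0.0544), FlncKO day 0 replicate 3 (0.0835) or FlncKO day 4 replicate 4 (0.068). Without FlncKO day 0 replicate 3 the FlncKO changes were themselves called (0.75 at day 4, adjusted p = 0.0441, and 0.78 at day 6, 0.03). In the order of Rbm38 levels, WT day 6 and WT day 4 overlapped each other and stood above WT day 2 without overlap. Every other pair of neighbours overlapped.

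**Figure D2:**
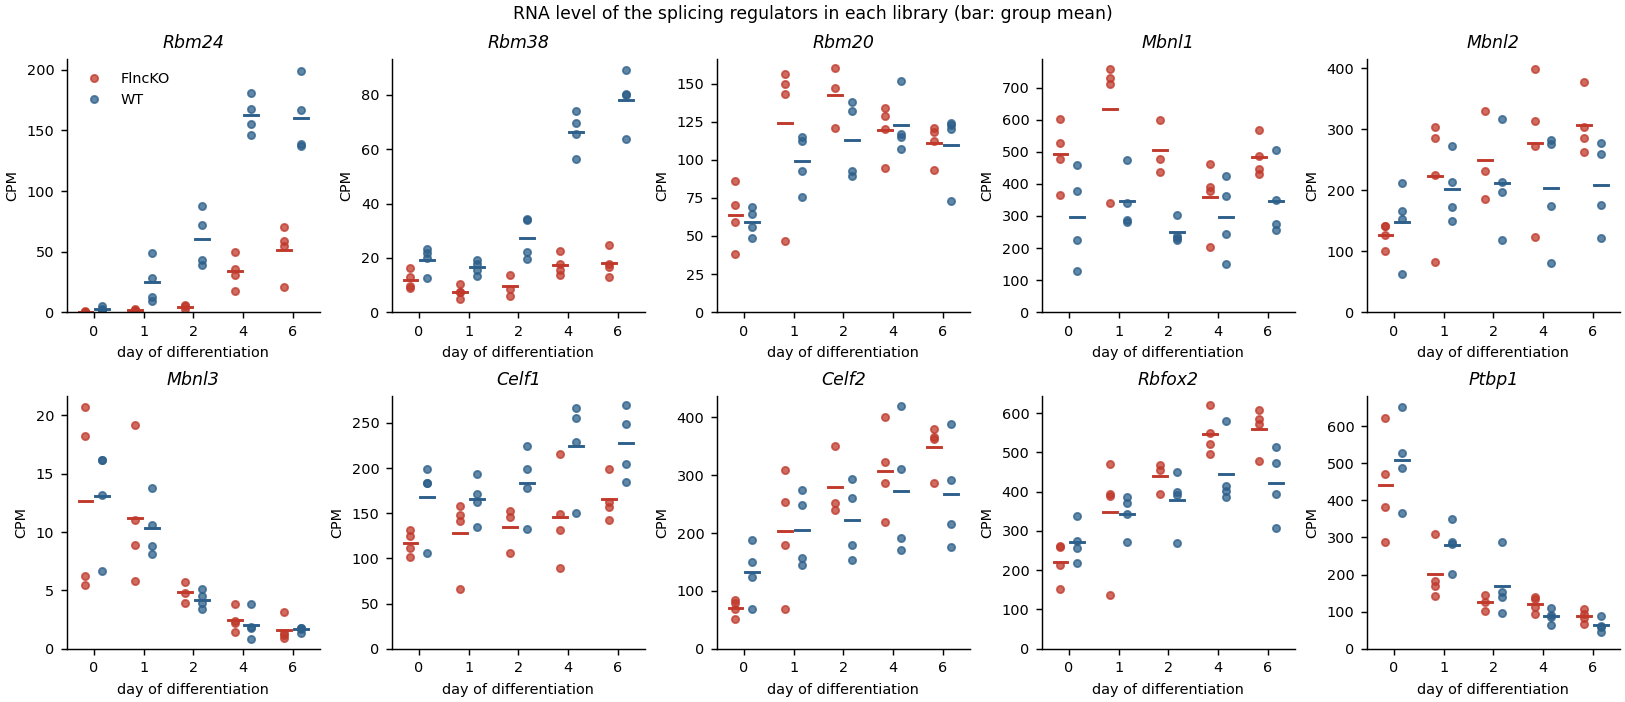
RNA level in CPM of library totals (vertical axis, linear from 0, a separate scale per gene) by day of differentiation (horizontal axis) for the 10 genes, with 1 point per library and a bar at the group mean, FlncKO left of WT. Rbm24 and Rbm38 show FlncKO libraries below WT at days 4 and 6, Ptbp1 and Mbnl3 fall in both lines, and Mbnl1 is higher in FlncKO at day 2 without overlap.

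Levels per kilobase of merged exon length put both genes on a common scale. The Rbm24 share of their sum was 2.41%, 13.5%, 29.8%, 60.2% and 68.0% in FlncKO on days 0, 1, 2, 4 and 6, and 9.62%, 50.3%, 63.3%, 66.7% and 62.5% in WT. Libraries of the lines did not overlap on days 1 and 2, when Rbm38 still held most of the sum in FlncKO, and overlapped on days 0, 4 and 6.

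Rbm20 (chr19:53677306-53867080, plus strand), which keeps spring-region exons out of titin messages and is mutated in a form of dilated cardiomyopathy, did not pass the test between the lines on any day. Its log2 difference lay between -0.13 (day 4) and 0.31 (day 1), and was 0.10 ± 0.12 over the 5 days (adjusted p = 0.492, edgeR). At day 6 it had 121, 112, 118 and 93.1 CPM in FlncKO, against 123, 124, 120 and 72.8 CPM in WT. Those libraries overlapped, and so did the lines on every other day. Rbm20 rose from growth to differentiation in both lines. In FlncKO it was 0.94, 1.13, 0.88 and 0.78 log2 units above day 0 on days 1, 2, 4 and 6 (adjusted p = 0.0148, 0.0015, 0.00484 and 0.0102), and in WT it was 0.91, 1.07 and 0.90 above on days 2, 4 and 6 (0.00532, 0.00056 and 0.00272). The day 1 call in FlncKO was lost without FlncKO day 0 replicate 3 or 5 or FlncKO day 1 replicate 1 or 5 (adjusted p = 0.0552 to 0.0979) and in the fit of only those groups (0.254), and the day 6 call without FlncKO day 0 replicate 3 (0.0513).

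Of the muscleblind genes, only Mbnl1 (chr3:60472830-60629750, plus strand) was called between the lines in the main edgeR fit. MBNL1 is the main muscleblind protein of skeletal muscle and promotes adult splice forms. Mbnl1 had 438, 477 and 598 CPM in FlncKO at day 2, against 304, 226, 232 and 237 CPM in WT. Every FlncKO library was above every WT library, and the FlncKO mean was 201.9% of the WT mean. At day 1 it had 758, 342, 712 and 729 CPM in FlncKO, against 474, 340, 281 and 286 CPM in WT. There the FlncKO library at 342 CPM, replicate 3, fell among the WT libraries. The edgeR log2 difference was 0.88 ± 0.33 at day 1 (adjusted p = 0.0365) and 0.96 ± 0.17 at day 2 (0.0309), and 0.63 ± 0.15 over the 5 days (0.000169). Neither daily call was firm: leaving out WT day 1 replicate 3, 4 or 5 or FlncKO day 1 replicate 1, 4 or 5 gave 0.0711 to 0.114, the fit of only the day 1 groups gave 0.0671, and leaving out WT day 2 replicate 3, 4 or 5 or FlncKO day 2 replicate 3 or 5 gave 0.0604 to 0.149. At day 0 the difference was 0.72 ± 0.44 (adjusted p = 0.1, and 0.0462 with the replicate block), and at days 4 and 6 it was 0.19 ± 0.42 (0.698) and 0.41 ± 0.24 (0.329). Against day 0, Mbnl1 passed the test on no day in either line, with log2 changes from -0.49 to 0.35 in FlncKO and from -0.25 to 0.25 in WT.

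Mbnl2 (chr14:120275669-120431697, plus strand), a paralog that acts on many of the same exons and is prominent in brain, did not differ between the lines by the test, with log2 differences from -0.23 (day 0) to 0.49 (day 6, adjusted p = 0.35). In the fit with a block within the day it was called higher in FlncKO at day 4 (0.39, adjusted p = 0.0253) and day 6 (0.52, 0.0249). Within FlncKO it was called above day 0 at day 4 (1.08 ± 0.39, adjusted p = 0.0207) and day 6 (1.24 ± 0.16, 0.00728), and at day 2 with the replicate block (0.90, 0.045). The day 4 call was lost without FlncKO day 0 replicate 3 or FlncKO day 4 replicate 1 or 5 (0.0556 to 0.0947). In WT its changes were 0.42 to 0.52 on the 4 days and did not pass. At day 6 Mbnl2 had 377, 286, 303 and 262 CPM in FlncKO, against 278, 259, 175 and 122 CPM in WT. The lowest FlncKO library was below the highest WT library, so the groups overlapped. The difference of the changes between the lines at day 6 was 0.72 ± 0.50 (adjusted p = 0.414).

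As shares of the 3 muscleblind genes per kilobase, Mbnl1 made up 68.5%, 64.2%, 56.2%, 46.1% and 50.1% in FlncKO on days 0, 1, 2, 4 and 6, and 52.8%, 50.6%, 43.8%, 48.9% and 51.6% in WT. At day 0 the FlncKO libraries ran from 64.2% to 71.6% and the WT libraries from 45.8% to 56.3%, and at day 1 from 59.5% to 71.0% and from 44.9% to 53.9%. Neither day overlapped, Mbnl2 being the mirror of Mbnl1 (27.9% in FlncKO and 41.9% in WT at day 0), and from day 2 on the lines overlapped. Mbnl3 made up 3.64% in FlncKO and 5.25% in WT at day 0 and 0.358% and 0.563% in those lines at day 6.

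Celf1 (chr2:90940382-91019497, plus strand) encodes a CELF protein that favours fetal splice forms and also directs decay of short-lived messages. It was lower in FlncKO over the 5 days, at -0.53 ± 0.12 log2 units (edgeR adjusted p = 5.54e-05), with FlncKO means at 65.0% to 77.6% of WT means by day. At day 4 it had 216, 89.1, 149 and 131 CPM in FlncKO, against 266, 150, 229 and 255 CPM in WT. The groups overlapped through FlncKO replicate 1 at 216 CPM and WT replicate 3 at 150 CPM. The difference was called at that day (-0.71 ± 0.32, adjusted p = 0.0179), a call lost without WT replicate 1 (0.0596), WT replicate 5 (0.0538) or FlncKO replicate 3 (0.0913), and in the fit of only those groups (0.0705). On the other days it was -0.54 ± 0.22 at day 0 (0.103, and 0.0463 with the replicate block), -0.37 ± 0.31 at day 1 (0.283), -0.49 ± 0.23 at day 2 (0.186) and -0.53 ± 0.16 at day 6 (0.0775). The day 6 difference was called lower with the replicate block (0.0331), the block within the day (0.00747), DESeq2 (0.0373), its size factors (0.0487), the fit of only those groups (0.0117) and without WT day 0 replicate 4 and FlncKO day 1 replicate 3 together (0.0201). Celf1 had the narrowest range of the 10 genes, 0.94 log2 units over the 10 groups. The main edgeR fit called it against day 0 on no day in either line. Some other settings called it higher than day 0. In WT these were DESeq2 (0.0399) and its size factors (0.0481) at day 6, and day 4 without WT day 4 replicate 3 (0.0316). In FlncKO day 6 they were the fit of only those groups (0.0299) and the same 2 libraries left out together (0.0383).

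Celf2 (chr2:6539694-7509563, minus strand), a paralog of Celf1 found mainly in brain, heart and muscle, had 83.9, 51.7, 78.5 and 69.3 CPM in FlncKO at day 0, against 188, 150, 68.4 and 124 CPM in WT. WT replicate 4 was the 1 WT library inside the FlncKO range. Celf2 was called lower in FlncKO there (-0.93 ± 0.35, edgeR adjusted p = 0.0483). That call was lost with no filter (0.0555) and without any 1 library of the day other than WT replicate 4 (0.0591 to 0.151). Without WT day 0 replicate 4 and FlncKO day 1 replicate 3 together it was -1.12 (adjusted p = 0.00362). From day 1 on the difference lay between -0.03 and 0.31 and did not pass.

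Within FlncKO, Celf2 rose by 1.502 ± 0.502, 1.96 ± 0.23, 2.09 ± 0.24 and 2.28 ± 0.18 log2 units against day 0 on days 1, 2, 4 and 6 (adjusted p = 0.0043, 9.81e-05, 7.6e-06 and 1.75e-06), the day 1 call being lost in the fit of only those groups (0.129). Within WT it rose by 1.08 ± 0.44 at day 4 (0.00736) and 1.04 ± 0.40 at day 6 (0.00846), the day 4 call being lost without WT day 4 replicate 1 (0.0568). The difference of the changes was 1.24 ± 0.44 at day 6 (0.0786) and passed only in other fits, such as the replicate block (1.26, 0.0173) and without WT day 0 replicate 4 and FlncKO day 1 replicate 3 together (1.403, 0.0109). As a share of Celf1 and Celf2 per kilobase, Celf2 held 16.4%, 32.4%, 40.4%, 41.3% and 40.8% in FlncKO on days 0, 1, 2, 4 and 6, and 20.1%, 28.5%, 28.1%, 27.7% and 27.2% in WT. The lines did not overlap on days 2, 4 and 6, with 37.3% to 43.2% in FlncKO libraries and 23.7% to 33.7% in WT libraries at day 6. With the longest transcript as the length, Celf2 held 65.2% in FlncKO and 50.2% in WT at day 6. Which gene of the pair held more thus depends on the length used.

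**Figure D3:**
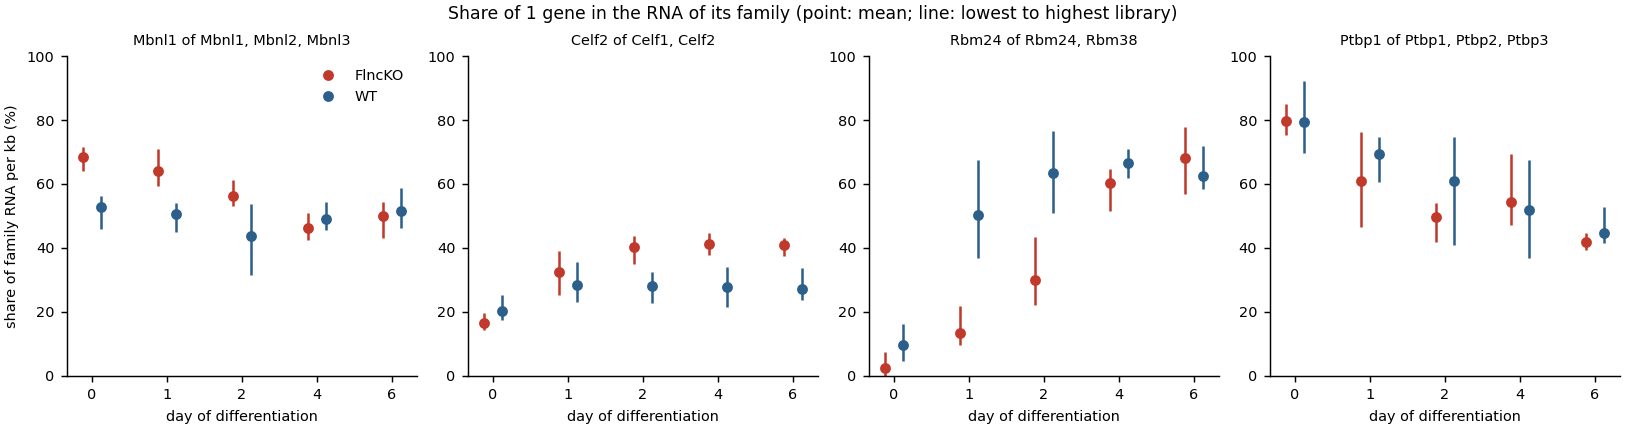
Share of 1 gene in the summed RNA of its family per kilobase of merged exon length (vertical axis, percent from 0 to 100) by day (horizontal axis), with the mean as a point and the lowest to highest library as a line, FlncKO left of WT. Mbnl1 is higher in FlncKO at days 0 and 1 (68.5% and 64.2%) and Celf2 from day 2 on (40.4% to 41.3%), Rbm24 is lower in FlncKO at days 1 and 2 (13.5% and 29.8%), and the Ptbp1 share overlaps between the lines on every day.

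Rbfox2 (chr15:77078990-77307004, minus strand), which encodes a widely expressed splicing factor that acts on muscle exons such as those of Mef2d, had 607, 585, 573 and 477 CPM in FlncKO at day 6, against 472, 514, 393 and 308 CPM in WT. The groups overlapped through FlncKO replicate 5 and WT replicate 3. It was called between the lines on no day, with log2 differences from -0.33 (day 0) to 0.34 (day 6, adjusted p = 0.285). It rose against day 0 in FlncKO by 0.96 ± 0.20 at day 2 (edgeR adjusted p = 0.00368), 1.28 ± 0.19 at day 4 (4.12e-05) and 1.32 ± 0.20 at day 6 (2.19e-05). In WT it rose by 0.74 ± 0.19 at day 4 (0.00817) and 0.65 ± 0.21 at day 6 (0.0179, or 0.0699 without WT day 6 replicate 3). The FlncKO change at day 1 was 0.64 ± 0.45 (0.077), and was called with the replicate block (0.0388). Per kilobase of merged exon length, Rbfox2 was the most abundant of the 10 at day 6, at 68.9 CPM per kb in FlncKO and 51.8 in WT. With the longest transcript as the length, Mbnl1 stood at 85.4 in FlncKO and 61.2 in WT, so the order of the leading genes depends on the length used.

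Ptbp1 (chr10:79854427-79864771, plus strand) and Mbnl3 (chrX:51117269-51206532, minus strand) were the members that fell with differentiation in both lines. PTBP1 represses muscle and neuronal exons, including one whose skipping keeps Ptbp2 low, and MBNL3 is a muscleblind protein known from proliferating muscle cells. Their promoter windows are shown as the pair that fell, and lie at chr10:79854182-79854481 (plus strand) for Ptbp1 and chrX:51205941-51206240 (minus strand) for Mbnl3, with CANNTG in capitals as above.
Ptbp1: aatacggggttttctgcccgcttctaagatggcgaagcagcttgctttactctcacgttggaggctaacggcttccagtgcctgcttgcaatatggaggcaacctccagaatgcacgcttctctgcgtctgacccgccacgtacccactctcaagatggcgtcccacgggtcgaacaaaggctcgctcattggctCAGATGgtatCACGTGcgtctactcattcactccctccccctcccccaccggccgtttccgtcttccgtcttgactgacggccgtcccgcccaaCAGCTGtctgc
Mbnl3: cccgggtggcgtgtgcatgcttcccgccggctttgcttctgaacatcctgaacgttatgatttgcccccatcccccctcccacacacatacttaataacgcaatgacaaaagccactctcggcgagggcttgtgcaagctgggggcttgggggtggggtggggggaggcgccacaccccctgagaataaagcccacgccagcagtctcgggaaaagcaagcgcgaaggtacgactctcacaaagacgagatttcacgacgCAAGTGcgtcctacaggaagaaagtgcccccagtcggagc
Ptbp1 has 3 matches and Mbnl3 has 1. The last match of Ptbp1 is CAGCTG, held by 16.3% of all windows, and neither window, nor that of Rbm24 or Rbm38, matched MEF2 letters, held by 3.19%.

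At day 0 Ptbp1 had 289, 382, 622 and 471 CPM in FlncKO, against 366, 486, 652 and 527 CPM in WT. At day 6 it had 108, 67.7, 92.6 and 83.2 CPM in FlncKO, against 59.9, 60.6, 87.0 and 44.7 CPM in WT. In both lines every day 6 library was below every day 0 library, and on both days the lines overlapped. In FlncKO it fell by 1.14, 1.86, 1.91 and 2.36 log2 units against day 0 on days 1, 2, 4 and 6 (edgeR adjusted p = 0.0127, 7.55e-05, 4.1e-06 and 1.26e-07). In WT the change was -0.93 at day 1 (0.0576, and 0.00608 with the replicate block), and it fell by 1.62, 2.54 and 3.02 on days 2, 4 and 6 (9.5e-05, 2.94e-08 and 1.14e-09). The FlncKO call at day 1 was lost without FlncKO day 0 replicate 4 or FlncKO day 1 replicate 1 or 5 (0.0532 to 0.0744) and in the fit of only those groups (0.169). FlncKO minus WT was -0.26, -0.47 and -0.50 on days 0, 1 and 2 and 0.38 and 0.41 on days 4 and 6, and did not pass on any day. The block within the day called it at day 4 (0.38, adjusted p = 0.0431). Exons of Ptbp1 overlap those of Plppr3 and E130317F20Rik on the opposite strand. Those genes had 10273 and 2698 reads in all libraries, against 175900 for Ptbp1, and the strand setting of the counting is not given in the sources used here, so part of these reads may be exchanged.

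At day 0 Mbnl3 had 5.45, 6.26, 18.2 and 20.7 CPM in FlncKO, against 16.2, 16.2, 6.66 and 13.2 CPM in WT. At day 6 it had 0.877, 1.37, 3.17 and 1.14 CPM in FlncKO, against 1.74, 1.68, 1.39 and 1.8 CPM in WT. Both lines spread widely at day 0 and overlapped on both days. In FlncKO it fell by 1.42 ± 0.52, 2.39 ± 0.57 and 2.91 ± 0.62 log2 units on days 2, 4 and 6 (edgeR adjusted p = 0.0181, 3.88e-05 and 3.14e-06), and in WT by 1.63 ± 0.32, 2.61 ± 0.51 and 2.96 ± 0.31 (0.00308, 7.88e-06 and 1.5e-06). The FlncKO call at day 2 was lost without FlncKO day 0 replicate 4 or 5 or FlncKO day 2 replicate 1 or 3 (0.0528 to 0.0806). FlncKO minus WT lay between -0.07 and 0.15 on all days.

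At day 6 against day 0, 5 members rose and 2 fell in FlncKO, where 20.5% of all tested genes were higher and 23.1% lower, and 5 rose and 2 fell in WT, where the shares were 21.7% and 27.8%. In FlncKO the 5 were Rbm24, Rbm20, Mbnl2, Celf2 and Rbfox2, and in WT they were Rbm24, Rbm38, Rbm20, Celf2 and Rbfox2. At day 1, 3 members rose and 1 fell in FlncKO (4.18% and 3.8% of all genes) and 1 rose in WT (2.32%). At day 2, 4 rose and 2 fell in FlncKO (12.7% and 13.9%), and 2 rose and 2 fell in WT (11.9% and 13.6%). At day 4, 5 rose and 2 fell in FlncKO (17.9% and 19.6%) and in WT (19.5% and 24.3%).

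Paralogs and partners of the members were read from the same fit. Celf4, a CELF gene known mainly from brain, was higher in FlncKO by 1.85 ± 0.22 log2 units over the 5 days (edgeR adjusted p = 4.09e-09), by 3.40 at day 4 (2.49e-06) and by 4.79 at day 6 (8.36e-08). Its level at day 6 was 4.49 to 7.93 CPM in FlncKO libraries and 0 to 0.305 CPM in WT libraries, of which replicate 1 had no read, a limit of 0.373 CPM. At day 0 it was 7.71 ± 4.02 CPM in FlncKO and 6.87 ± 1.92 CPM in WT (SD, n = 4 each), so the fitted change against day 0 was -0.31 in FlncKO (adjusted p = 0.578) and -4.95 in WT, and the difference of the changes passed (4.65, 3.29e-05). Celf5 was higher over the 5 days (0.84 ± 0.30, 0.024).

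Rbfox1, the RBFOX gene of brain, heart and skeletal muscle, was lower in FlncKO over the 5 days (-2.03 ± 0.29, edgeR adjusted p = 0.000311). It had 0.551 to 2.19 CPM in FlncKO libraries and 6.91 to 16.5 CPM in WT libraries at day 6 (log2 difference -2.97, adjusted p = 0.0037). Srpk3, a muscle kinase of SR proteins, was lower as well (-2.55 ± 0.25, 1.88e-09), with 7.35 CPM in FlncKO and 27.0 CPM in WT on average at day 6 (-1.95 in the fit). Qk, whose product quaking acts on muscle exons, stood at -0.32 ± 0.14 (0.0309, and 0.0513 to 0.0557 without any of 5 single libraries). Raver1, a partner of PTBP1, was at 0.10 ± 0.10 (0.476).

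Ptbp2, the PTBP1 paralog of neurons, crossed between the lines. It averaged 22.8 ± 1.95 CPM in FlncKO and 41.4 ± 13.2 CPM in WT at day 0 (SD, n = 4 each), where it was called lower (-0.88, edgeR adjusted p = 0.00141). At day 6 it averaged 72.5 ± 12.0 CPM in FlncKO and 51.2 ± 4.33 CPM in WT, a difference of 0.43 that did not pass (0.0902). It rose by 1.64 log2 units in FlncKO over that time, against 0.33 in WT (adjusted p = 0.153), and the difference of these changes passed (1.31, 0.0013). Ptbp3 was at 0.28 ± 0.16 over the 5 days (0.0925), and past the threshold without WT day 0 replicate 4 and FlncKO day 1 replicate 3 together (0.27, 0.0396). Of the 3 PTB genes per kilobase, Ptbp1 made up 79.8% in FlncKO and 79.3% in WT at day 0 and 41.9% and 44.8% in those lines at day 6, and the share of Ptbp2 was 18.3% and 19.2% there. The Ptbp shares overlapped between the lines on every day.

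**Figure D4:**
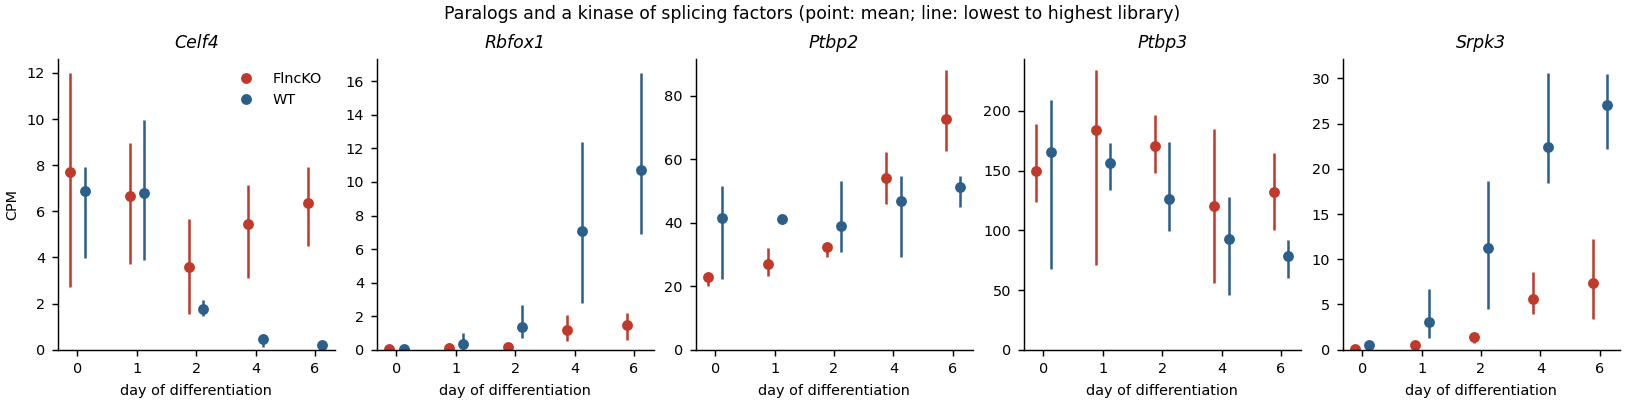
RNA level in CPM of library totals (vertical axis, linear from 0) by day (horizontal axis) for 5 related genes, with the mean as a point and the lowest to highest library as a line, FlncKO left of WT. At day 6 Celf4 is higher in FlncKO (4.49 to 7.93 CPM against at most 0.305 CPM in WT), and Rbfox1 and Srpk3 are lower.

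Genes whose transcripts are textbook targets of the member families were mostly lower in FlncKO. Of 29 tested, 17 were lower and 3 higher over the 5 days, where 26.3% of all tested genes were lower and 26% higher, with a median log2 difference of -0.35 against 0.005 over all genes. Of the 7 myotube markers, 6 were lower in the same comparison, with a median of -1.90, and their part in the target list was not tested. Among them Ttn, the giant sarcomere spring and the main RBM20 target, was at -1.56 ± 0.40 (edgeR adjusted p = 0.000762). Bin1, a membrane-tubule gene with a muscle-only exon, was at -1.45 ± 0.10 (7.94e-13), and the Z-disc gene Ldb3 at -0.80 ± 0.16 (3.65e-05). The thin-filament genes Tnnt2 and Tnnt3 were lower by -1.80 ± 0.21 (9.97e-09) and -1.35 ± 0.28 (5.34e-05). Tpm1 was lower too (-0.54 ± 0.10, 5.86e-05), as was Pkm (-0.31 ± 0.11, 0.0256), while Tpm2 (-0.29 ± 0.11, 0.0329) lost its call without any of 8 single libraries. The calcium pump gene Atp2a1 (-0.35 ± 0.23, 0.191) and the chloride channel gene Clcn1 (0.86 ± 0.30, 0.0681) did not pass. At day 6 against day 0, 18 of the 29 rose in FlncKO and 20 in WT, where 20.5% and 21.7% of all tested genes were higher in those lines.

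Of 6 messages that RBM38, RBM24 or CELF1 are known to bind, 3 were lower and 2 higher in FlncKO over the 5 days. Of all tested genes, 26.3% were lower and 26% higher there. Myog is also among the 7 myotube markers, of which 6 were lower, and their part in this list was not tested. Cdkn1a, the cell-cycle inhibitor, was at -1.15 ± 0.15 (edgeR adjusted p = 2.03e-08) and Myog, the differentiation factor, at -1.997 ± 0.272 (5.74e-08). Myod1, the myoblast determination factor, was at 0.78 ± 0.09 (3.16e-08), and Trp53 at 0.17 ± 0.09 (0.139).

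Over the same average, 9 of 37 other regulators of alternative splicing were lower and 8 higher, and 7 of 21 SR proteins and their kinases were higher, where 26.3% of all tested genes were lower and 26% higher. At day 6 against day 0, 17 of the 37 other regulators fell in FlncKO, against 22 in WT. Core spliceosome genes fell in 20 of 30 cases in FlncKO and 18 in WT, and SR genes in 10 of 21 and 13, where 23.1% of all tested genes fell in FlncKO and 27.8% in WT. The median change of the core genes was -0.82 in FlncKO and -0.74 in WT, beside -0.05 and -0.08 for all tested genes, while that of the 10 members was 0.67 and 0.58.

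Genes of like pattern were taken over the 10 group means of log2 CPM from 10196 genes with at least 10 CPM in a group, as a description. Closest to Rbm24 were Srpk3 (Pearson r = 0.993), Zbtb18 (0.992) and Smyd1 (0.992), and closest to Rbm38 were Actn2 (0.994), Rcan1 (0.994) and Obsl1 (0.993). Closest to Ptbp1 were Tagln2 (0.997), Cfl1 (0.992) and Lrwd1 (0.991), and closest to Mbnl3 were Kctd11 (0.986), Plk1 (0.985) and Nuf2 (0.985). The 10 points of each pair share libraries and depth.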

How the data were processed

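Stranded poly(A) libraries (TruSeq) of 39 samples were analysed from a deposited table of raw read counts per gene. Per the submitters' processing notes, the authors used FastQC 0.11.9, STAR 2.7.9, featureCounts 2.0.3 and DESeq2, and listed GRCm38 and GRCh38 with no role for either. The strand setting and annotation are not given in the sources used here. Of 560803 deposited counts above 0, 64.4% were even, so mates of read pairs may have been counted separately. Of the table's columns, 1 fitted no sample label and was not used. All 29980 identifiers matched GENCODE on GRCm38.

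The fit used edgeR 4.0.16 with limma 3.58.1 in R 4.3.3: 1 mean for each of the 10 groups, TMM (factors 0.904 to 1.05), filterByExpr, robust quasi-likelihood F-tests, 29 residual degrees of freedom, and Benjamini-Hochberg adjustment within each comparison over 13780 genes. For each SE, the variance of log2 CPM (prior count 2) in each group was divided by its n, and the root of the sum was taken. Levels are CPM of library totals, per kilobase of merged exon length between genes. A floor is 3 counts of a library's total.

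The members and gene lists were chosen with earlier results of these data known. Named genes were all members, paralogs and partners, set targets and messages, and, for the 4 members of widest range, the 3 genes closest in pattern. Library numbers recur across groups. Same-numbered libraries were taken as paired where every pair's deviations from group means correlated over 0.1: FlncKO against WT on days 0 to 4 (0.13 to 0.57), day 1 against day 0 in both lines and day 2 against day 0 in FlncKO. The pairing comes from this check, not from the labels. The main fit had no replicate term, so its p-values do not use this pairing. Replicate number entered only the replicate block and the block within the day. Alternatives were DESeq2 size factors, DESeq2 1.42.0, no filter, a replicate block, a block within the day, only the groups compared, halved counts, leaving out FlncKO day 1 replicate 3 and WT day 0 replicate 4 together, leaving out each library in turn, TMM-scaled levels and the longest transcript as length. The fit was run on simulated data for only 1 comparison, FlncKO against WT at day 6, and the outcome is not given here.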

Additional observations from a re-analysis of the deposited data

Results flagged for a closer look

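Among 90 groups of 4 libraries, 5 held a library far from the others of its group, with a gap to the nearest library above Dixon's critical value of the group's range; chance alone gives about 1 in 20 groups. In FlncKO day 1 replicate 3, the library least like its group, Rbm20 was at 46.4 CPM beside 143 to 156 CPM, and Mbnl1 was at 342 CPM beside 712 to 758 CPM. Rbm20 was at 72.8 CPM in WT day 6 replicate 5, beside 120 to 124 CPM. Mbnl1 was at 304 CPM in WT day 2 replicate 1, beside 226 to 237 CPM, and Rbfox2 was at 580 CPM in WT day 4 replicate 1, beside 386 to 415 CPM.

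The change of Rbm38 against day 0 differed between FlncKO and WT by the test of the difference itself, by -1.29 log2 units at day 4 and by -1.47 at day 6.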

How the results depend on the processing

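Over the settings other than leaving out 1 library, 1216 of the members' log2 differences stayed on their side of the threshold, 34 moved past it and 10 lost it, and none changed sign by more than its SE. With 1 library left out, 1978 stayed, 13 moved past, 47 lost it and 2 uncalled values changed sign by more than their SE. Sign changes of uncalled values within the SE were counted as stayed in both tallies. The 2 values were those of Rbm24, genotype by day. They were -1.06 at day 1 and -0.73 at day 2, and 0.41 and 0.74 without FlncKO day 0 replicate 4 (lowest -1.77 and -1.44, without WT day 0 replicate 5). The Rbm38 and Rbm24 calls from day 1 to day 6 between the lines held under every alternative run.

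The following counts of members moved by over 1.5 times, or to or from 0; smaller moves are not listed. With the replicate block, FlncKO against WT at day 0 gave 1 higher and 4 lower (0 and 2 without), WT day 1 against day 0 gave 1 lower (0), genotype by day gave 1 higher at day 6 (0), and 2 jointly (1). The block within the day gave 1 lower at day 0, 2 higher at day 4 and 1 higher at day 6. No filter gave 1 lower at day 0. The fit of only the groups compared gave 0 higher at day 1 (1), and 0 higher and 0 lower for FlncKO day 1 against day 0 (3 and 1). DESeq2 and halved counts each gave 1 lower for WT day 1. Leaving out FlncKO day 1 replicate 3 and WT day 0 replicate 4 together gave 2 higher for WT day 1, 5 higher for FlncKO day 1, 1 higher for genotype by day at days 4 and 6, and 2 jointly. With 1 library left out, FlncKO against WT ranged from 0 to 1 higher and 1 to 3 lower at day 0, and 0 to 1 higher at days 1 and 2. WT day 1 ranged from 0 to 1 lower, FlncKO day 1 from 1 to 5 higher and 0 to 1 lower, and FlncKO day 2 from 1 to 2 lower. Genotype by day ranged from 0 to 1 lower at day 4, 0 to 1 higher at day 6 and 0 to 2 jointly. The share of all genes called under each of these settings is not given here, and the cause of these moves was not tested.

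Overlap of family shares was the same with the longest transcript for 50 of 50 shares by day, while 59 of 100 mean shares moved beyond their SD. Low counts limit Rbm24 in FlncKO at day 0, and the lower depth of day 6 limits Mbnl3 and Celf4.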
